A study of Danio rerio with 6 samples.

Results

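The genes described here encode the subunits of the chaperonin CCT (also called TRiC), measured as mRNA in whole zebrafish larvae. They were chosen by symbol (tcp1, cct2, cct3, cct4, cct5, cct6a, cct7 and cct8), and all 8 were present among the 23876 genes of the table. The 8 genes had 10 annotated transcripts among 45602. Where a gene had more than 1, the row of highest mean across the 6 libraries stood for it. This applied to cct6a and cct8, which had 2 transcripts each. Mutant larvae were homozygous for a znf469 mutation, named a knockout in the labels and znf469-4del in the design text. They were compared with wild type (WT) larvae. Both groups were collected at 7 days post fertilization and kept at 28.5 °C, and each group had 3 libraries of poly(A) RNA, each from a pool of 50 larvae. The labels name no strain and do not say whether the pools came from separate clutches. The p-values therefore measure only the spread between these pools, which may be technical. In RNA from whole larvae, fewer cells of a type and less RNA per cell cannot be told apart.

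CCT is a chaperone of the cytosol made of a pair of stacked rings, in which each ring holds a copy of every subunit. It encloses newly made proteins and folds them in a cycle driven by ATP. Actin and tubulin are its best known clients, together with proteins built from WD40 repeats, and the cochaperone prefoldin hands unfolded actin and tubulin to it. In budding yeast the subunits encoded by the counterparts of tcp1, cct2, cct4 and cct5 bind ATP more tightly than those encoded by cct3, cct6a, cct7 and cct8. In zebrafish, loss of single subunits is known to disturb the retina and the skeletal muscle, tissues that make much tubulin and actin.

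Values are normalized read counts, that is, reads divided by a factor per library. Summed over all transcripts, which counts reads shared by isoforms more than once, there were 17023269 to 19101870 reads in mutant pools and 18602183 to 19156581 in WT pools. Over 1 transcript per gene there were 8111192 to 9576627 in mutant pools and 9187098 to 9683579 in WT pools. A CCT subunit had between 1808 and 5997 reads in a library, which gives a counting error of 2.35% to 1.29% of the value. The SD between replicates was larger, at 4.77% to 21.2% of the group mean, so depth was not the limit for these genes. Principal components were taken over 19277 genes, and the first 2 held 47.3% and 27.2% of the variance. Mutant replicate 2 and WT replicate 1 stood apart from their groups on both (53.0 and -60.4 on the second component). On the first they lay between the other pools, at -12.8 and 3.14. The other mutant pools were at -48.4 and -54.5 there, and the other WT pools at 49.2 and 63.5. Results on the subunits and on the lists of genes below are therefore also given without mutant replicate 2 and WT replicate 1. The targeted gene znf469 had normalized read counts of 233, 186 and 209 in mutant pools 1 to 3, against 296, 198 and 206 in WT pools. The groups overlapped, and as a mutated gene can keep its mRNA level, these values say nothing about the labels.

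Of the 8 subunits, 7 had higher mean levels in mutant than in WT pools, by 1.19 to 1.48 times, and cct2 alone had a lower mean, at 0.875 times the WT value. No subunit passed the test across all genes (0 of 8; limma on log2(value + 1), Benjamini-Hochberg adjusted p from 0.125 to 0.626). Over all 22803 genes tested, 4.49% passed, 2.31% higher and 2.18% lower in mutant pools, and 49.9% had a positive log2 difference. At an unadjusted p under 0.05, 3 of the 8 subunits (cct3, cct5 and tcp1) were higher, against a background of 9.03% of genes higher at that level. The levels of the 7 higher subunits, these 3 included, moved together over the same pools, so neither count is of separate results. By edgeR's quasi-likelihood test on the recovered reads 0 of 8 passed, where 4.67% of all genes did. DESeq2 called 1 of the 8, cct3 (log2 fold change 0.56, Benjamini-Hochberg adjusted p = 0.0338), where 3.49% of all genes were called higher. The median log2 fold change of the 8 subunits was 0.32, beside -0.0015 over all genes tested and 0.04 over the 536 genes whose mean level was at least that of the lowest subunit. Of those 536 genes, 7.84% passed in limma in either direction, and 55.0% had a positive log2 difference. In the authors' deposited table, 1 of the 10 CCT transcripts had a q-value under 0.05, that of cct3 at 0.011 with a log2 fold change of 0.56, where 8.33% of all transcripts did.

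**Figure D1:**
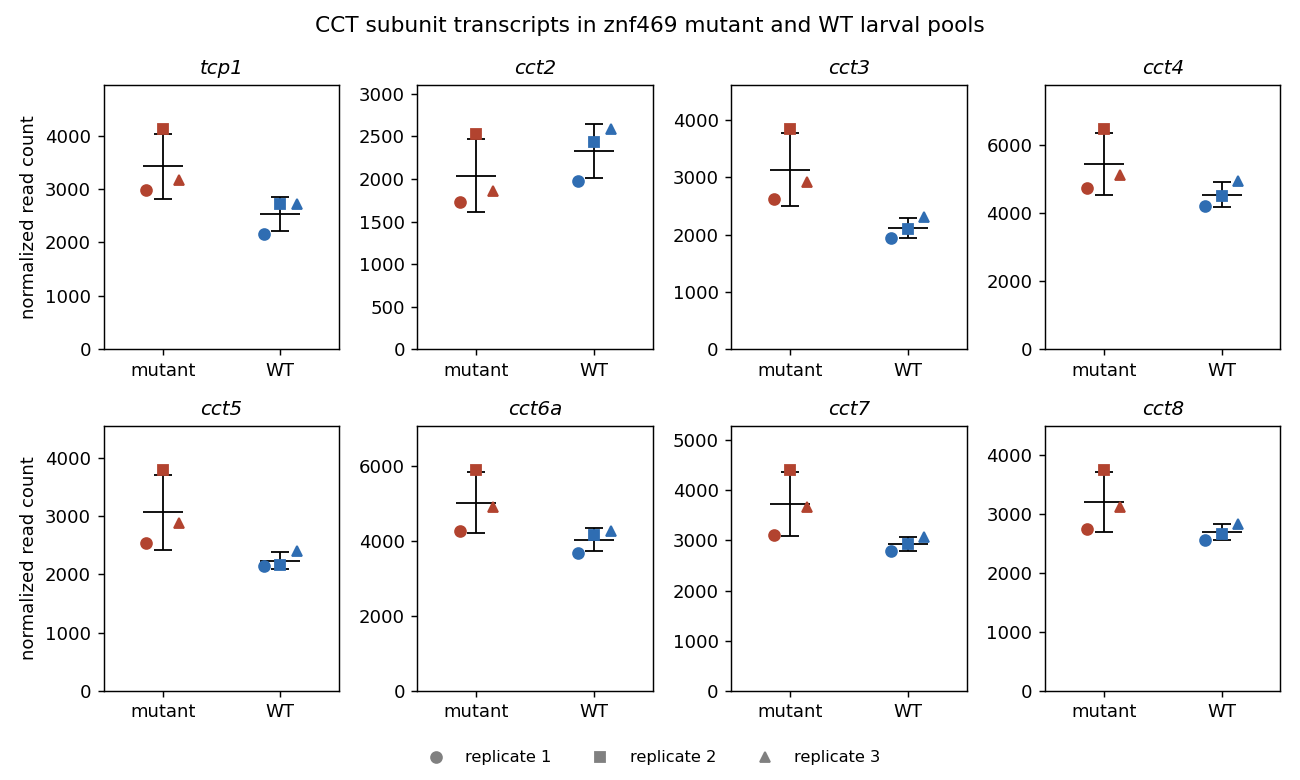
Normalized read counts (vertical axes, starting at 0) of the 8 CCT subunits in mutant pools (left, red) and WT pools (right, blue), with marker shape for the replicate and bars for mean ± SD of 3 pools. Mutant replicate 2 was the highest mutant pool and WT replicate 1 the lowest WT pool for every subunit, and cct2 was the only subunit with a lower mean in mutant pools.

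Among the subunits whose yeast counterparts bind ATP tightly, tcp1 and cct5 had the larger differences. The gene tcp1 encodes subunit alpha. It had 2973, 4122 and 3168 normalized read counts in mutant pools 1 to 3, against 2165, 2722 and 2718 in WT pools. Every mutant pool lay above every WT pool, and the log2 difference was 0.43 (limma, SE 0.18, Benjamini-Hochberg adjusted p = 0.242). The gene cct5 encodes subunit epsilon, in which a human mutation causes a sensory neuropathy. Its normalized read counts were 2532, 3790 and 2881 in mutant pools, against 2150, 2159 and 2403 in WT pools. Again the groups did not overlap, with a log2 difference of 0.44 (limma, SE 0.18, Benjamini-Hochberg adjusted p = 0.223).

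The other members of this set were cct4 and cct2. For cct4, which encodes subunit delta, values were 4740, 6462 and 5111 in mutant pools, against 4194, 4498 and 4925 in WT pools. Here the groups overlapped, since mutant pool 1 lay under WT pool 3, and the log2 difference was 0.25 (SE 0.18, adjusted p = 0.508). The gene cct2 encodes subunit beta and is mutated in a human retinal dystrophy. Its values were 1726, 2533 and 1863 in mutant pools, against 1976, 2431 and 2587 in WT pools. Mutant pools 1 and 3 lay under every WT pool and mutant pool 2 lay inside the WT range, so the groups overlapped. The log2 difference of cct2 was -0.20 (limma, SE 0.19, Benjamini-Hochberg adjusted p = 0.626).

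Among the subunits whose yeast counterparts bind ATP less tightly, cct3 stood first. The gene cct3 encodes subunit gamma, and its loss in zebrafish is known to disturb the retina. It had 2624, 3840 and 2920 normalized read counts in mutant pools, against 1948, 2106 and 2304 in WT pools. The lowest mutant pool exceeded the highest WT pool, and the group means were 3128 ± 634 in mutant and 2119 ± 178 in WT pools (SD, n = 3 each). Its log2 difference of 0.55 (limma, SE 0.18, Benjamini-Hochberg adjusted p = 0.125) was the largest of the 8, and 28.5% of all genes tested had a larger difference in size. Among the 536 genes with a mean level at least that of the lowest subunit, 19.8% did.

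The remaining subunits differed less. For cct7, subunit eta, values were 3117, 4403 and 3674 in mutant pools, against 2790, 2925 and 3070 in WT pools, with no overlap and a log2 difference of 0.34 (SE 0.17, adjusted p = 0.335). For cct6a, subunit zeta, they were 4263, 5880 and 4913 in mutant pools, against 3676, 4143 and 4269 in WT pools. Mutant pool 1 of cct6a lay just under WT pool 3, and the log2 difference was 0.31 (SE 0.17, adjusted p = 0.399). For cct8, subunit theta, which in nematodes and human stem cells drives assembly of the whole complex, they were 2731, 3733 and 3106 in mutant pools, against 2555, 2662 and 2824 in WT pools. These groups also overlapped, and cct8 had a log2 difference of 0.24 (SE 0.16, adjusted p = 0.493). In all, the groups did not overlap for 4 of 8 subunits (tcp1, cct3, cct5 and cct7, each higher in mutant pools), where 11.6% of all genes tested were higher without overlap. The levels of these subunits moved together over the same pools, so they are not separate results. The transcripts not used for cct6a and cct8 had lower values of the same order. They were 4225, 5830 and 4871 for cct6a in mutant pools and 3660, 4129 and 4260 in WT pools. For cct8 they were 2523, 3435 and 2849 in mutant pools and 2415, 2498 and 2625 in WT pools.

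In normalized read counts the subunits moved together from pool to pool within each group. Among mutant pools all 8 were lowest in replicate 1 and highest in replicate 2. In WT pools all 8 were lowest in replicate 1, and 7 were highest in replicate 3, with tcp1 highest in replicate 2 by a small margin. How many of all genes had these orders was not counted, and mutant replicate 2 and WT replicate 1 stood apart over all genes. In normalized read counts the spread was wider among mutant pools (SD 15.9% to 21.2% of the mean) than among WT pools (4.77% to 13.6%). The same spread over all genes was not measured. The summed level of the 8 subunits was 24706, 34763 and 27637 in mutant pools, against 21455, 23647 and 25100 in WT pools. Mutant pool 1 fell inside the WT range, and with cct2 left out of the sum the groups no longer overlapped (22980, 32230 and 25773 in mutant pools, against 19479, 21216 and 22513 in WT pools). As a share of the reads of each library over 1 transcript per gene, the 8 subunits took 0.292%, 0.337% and 0.331% in mutant pools, against 0.247%, 0.259% and 0.262% in WT pools. On this scale, which uses each library's total, the groups did not overlap. Means ± SD were 0.320% ± 0.0244 in mutant and 0.256% ± 0.00776 in WT pools. Relative to the mean, both SDs were smaller than for the summed normalized read counts. The orders above did not all hold on this scale. For cct6a, cct7 and cct8, mutant replicate 3 exceeded replicate 2. For cct5, cct7 and cct8, WT replicate 1 was not the lowest WT pool. With all values rescaled to total reads cct3 passed (log2 difference 0.56, limma, Benjamini-Hochberg adjusted p = 0.0331), where 2.87% of all genes were higher.

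The level of cct2 relative to the other subunits was lower in mutant than in WT pools, with no overlap. Ratios between subunits of the same library do not depend on how the libraries were scaled. Reads of cct2 amounted to 0.580, 0.614 and 0.588 times those of tcp1 in mutant pools, against 0.913, 0.893 and 0.952 times in WT pools. Set against cct3, the ratio was 0.658, 0.660 and 0.638 in mutant pools, against 1.01, 1.15 and 1.12 in WT pools. The ratio to each of the 7 other subunits was lower in every mutant pool than in every WT pool. All 7 ratios share the reads of cct2, so they are not separate results. The margin between the groups was narrowest as a fold for cct8, where the ratio was 0.632, 0.678 and 0.600 in mutant pools, against 0.773, 0.913 and 0.916 in WT pools. These ratios are of reads per transcript with no correction for length, so they compare libraries and not the amounts of the subunits.

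Relative to the mean log2 level of the other 7 subunits, cct2 was at -0.89, -0.83 and -0.94 in mutant pools, against -0.44, -0.26 and -0.26 in WT pools. The difference of -0.57 in this log2 ratio corresponds to 0.675 times the WT ratio. The within-group SDs were 0.06 in mutant and 0.10 in WT pools, and the difference was 5.50 times the larger of them. An exact two-sided permutation test of this ratio over the 3 mutant and 3 WT pools gave p = 0.1, the smallest value that this design allows. That value follows from the lack of overlap, and 4 of the 8 subunits reached it (tcp1, cct2, cct3 and cct5), with no correction for the 8 ratios. The 8 ratios share their members and are not independent. The lower mean of cct2 alone in these same pools already set the direction of its mean ratio. The test is therefore no separate support for it. How often such ratios lack overlap in other sets of genes was not tested. The difference was -0.63 to -0.54 with any library left out, and -0.65 without mutant replicate 2 and WT replicate 1. As a share of the summed reads of the 8 subunits, cct2 took 7.00% ± 0.273 in mutant and 9.93% ± 0.625 in WT pools (SD, n = 3 each).

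The other subunits shifted by smaller amounts. By the same measure cct3 was 0.29 higher in mutant pools (log2 ratio to the other 7 of -0.20, -0.14 and -0.20 in mutant pools, against -0.46, -0.50 and -0.45 in WT pools). The groups did not overlap. The SDs of cct3 were 0.03 in each group, so its difference was 8.71 times the larger SD, a higher multiple than that of cct2. Differences for cct5 and tcp1 were 0.16 and 0.15, also without overlap, while cct4, cct6a, cct7 and cct8 overlapped.

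The low level of cct2 enters the mean to which each of the others was compared, and it made up much of several of these differences. With cct2 left out of that mean, a comparison added after the values were seen, cct3 was 0.21 higher in mutant pools (log2 ratio to the other 6 of -0.33, -0.27 and -0.35 in mutant pools, against -0.54, -0.55 and -0.50 in WT pools). It remained the one subunit of these 7 that was higher without overlap. The differences of tcp1 and cct5 were then 0.07 and 0.09, and their groups overlapped. Those of cct4, cct6a and cct8 were -0.13, -0.07 and -0.14, with each ratio lower in every mutant pool than in every WT pool. For cct7 the difference was -0.03 and the groups overlapped. The 7 ratios must balance within each library, so positive differences such as that of cct3 force negative ones in other subunits. The negative values are therefore no separate results. The mean levels of cct4, cct6a, cct7 and cct8 themselves were higher in mutant than in WT pools.

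**Figure D2:**
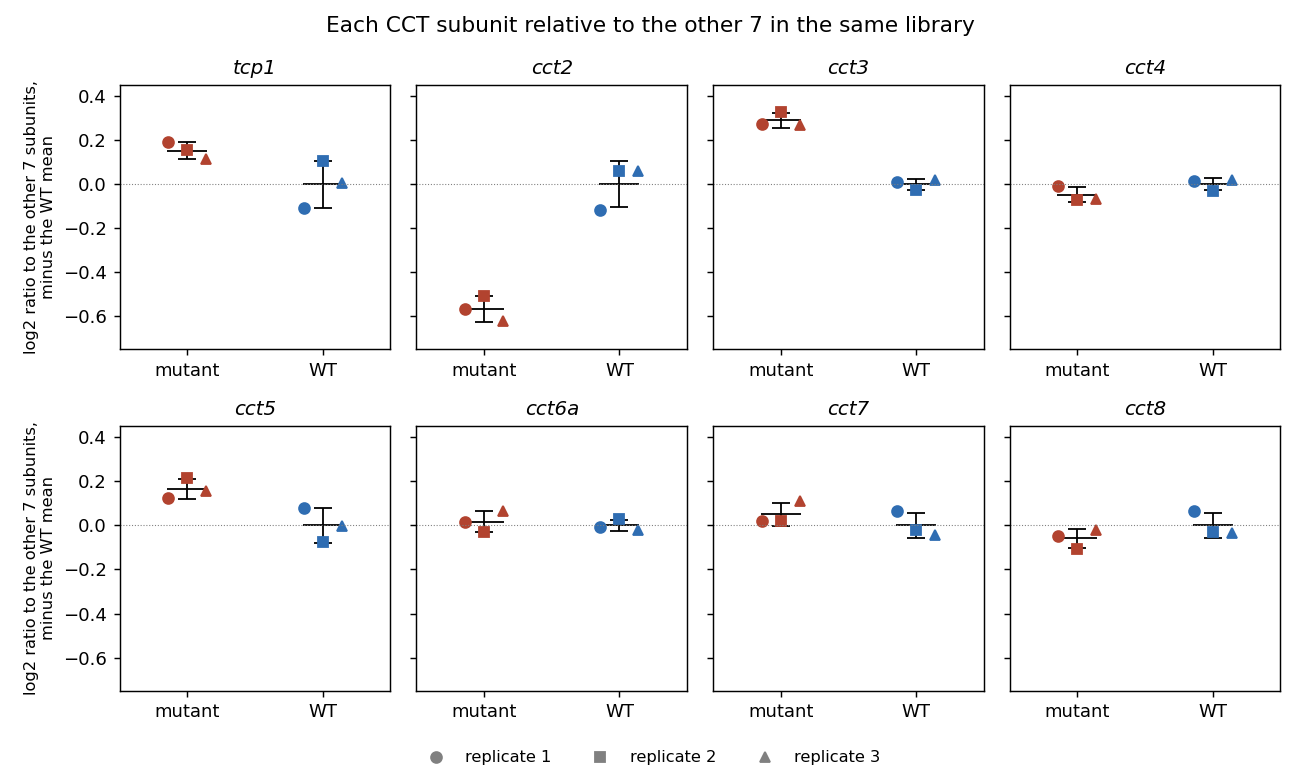
Log2 ratio of each CCT subunit to the mean of the other 7 in the same library (vertical axes, log2 units, with the WT mean set to 0) in mutant pools (left, red) and WT pools (right, blue), with bars for mean ± SD of 3 pools. The mutant pools of cct2 lie 0.57 under the WT mean on average and those of cct3 0.29 above it, both without overlap, while cct4, cct6a, cct7 and cct8 overlap. The mean of the other 7 includes cct2 in every panel but its own.

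Across the 6 libraries, the log2 level of each subunit other than cct2 had a Pearson r of 0.944 to 0.994 with the mean z-score of the remaining 7. For cct2 the r was 0.248. These are descriptions of 6 libraries that fall into 2 groups, and 2 libraries at the extremes (mutant replicate 2 and WT replicate 1) weigh on them. Among the 13914 other genes with a mean of at least 50, the patterns most like the mean z-score of the 8 subunits were those of gnptg, eaf2, cox7a3, eif4ebp3, eif2s3 and eif3ha (r from 0.992 to 0.999 over 6 libraries). The gene eif2s3, for the gamma subunit of initiation factor eIF2, had 4505, 6399 and 4972 normalized read counts in mutant pools, against 3769, 4449 and 4514 in WT pools. It was highest in mutant replicate 2 and lowest in WT replicate 1, which follows from its choice by likeness to the subunits in these same libraries. The gene eif3ha, for a subunit of initiation factor eIF3, had 1064, 1660 and 1215 in mutant pools, against 970, 1074 and 1170 in WT pools. Neither passed in limma (log2 difference 0.31 and 0.27, Benjamini-Hochberg adjusted p = 0.424 and 0.492), nor did gnptg, eaf2, cox7a3 and eif4ebp3 (adjusted p from 0.308 to 0.402). Whether genes of this pattern share a function was not tested.

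Without mutant replicate 2 and WT replicate 1, the higher subunits came closer to WT and cct2 moved further below it. The log2 difference of cct3 was then 0.33 (limma, SE 0.12, Benjamini-Hochberg adjusted p = 0.0657), that of tcp1 0.17 and that of cct4 0.06. That of cct2 was -0.48 (SE 0.11, adjusted p = 0.0109), so that cct2 alone of the 8 passed. In normalized read counts, mutant replicate 2 was the highest mutant pool and WT replicate 1 the lowest WT pool for every subunit. Leaving out both therefore had to lower all 8 differences, that of cct2 included, and the call of cct2 is no separate result. In that fit 11.8% of all genes passed lower and 11.8% higher, and leaving out libraries because they stand apart lowers the spread within groups. The median of the 8 subunits was 0.15 in that fit, beside -0.058 over all genes tested. With mutant replicate 2 alone left out, the log2 differences were 0.39 for cct3, 0.12 for cct4, 0.12 for cct8 and -0.37 for cct2 (adjusted p from 0.140 to 0.648 for these 4). With mutant replicate 1 alone left out, cct2 was at -0.09. In every one of these fits the sign of each subunit was as with all 6 libraries.

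**Figure D3:**
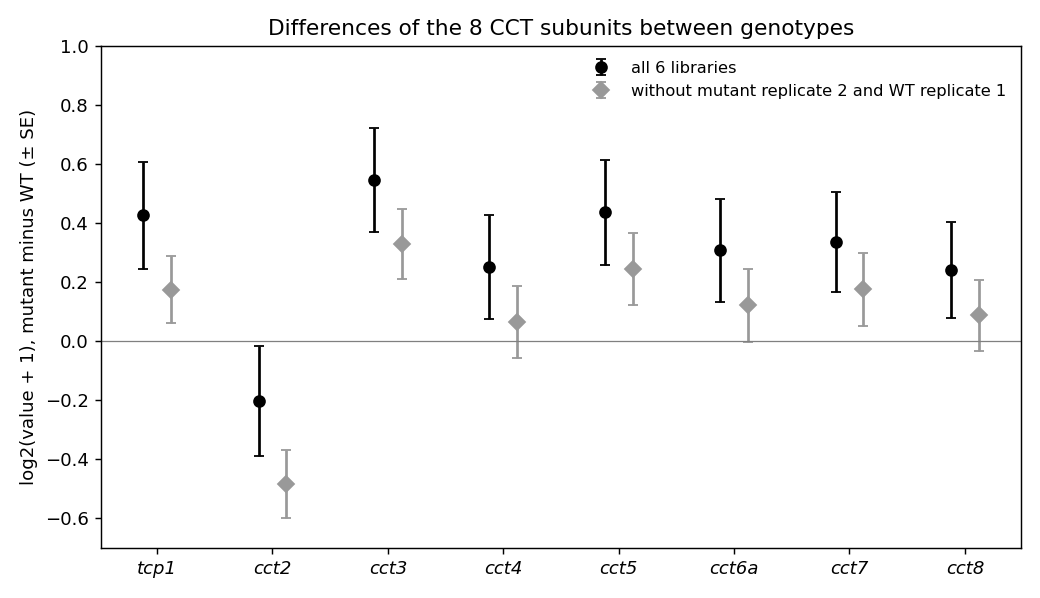
Difference in log2(value + 1) between mutant and WT pools (vertical axis, ± SE) for the 8 CCT subunits, with all 6 libraries (black circles) and without mutant replicate 2 and WT replicate 1 (gray diamonds). Leaving out both libraries, the highest mutant pool and the lowest WT pool for every subunit, must lower all 8 differences. It does so from 0.55 to 0.33 for cct3 and from -0.20 to -0.48 for cct2.

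The clock gene per3 differed within both groups, with normalized read counts of 354, 95.9 and 518 in mutant pools, against 564, 88.3 and 86.1 in WT pools. Mutant replicate 2 had the lowest per3 of its group and the highest CCT sum, and WT replicate 1 had the highest per3 and the lowest CCT sum. The remaining pools did not follow this order. Mutant replicate 3 had both a higher per3 and a higher CCT sum than mutant replicate 1 (27637 against 24706). WT replicates 2 and 3 had similar per3, with CCT sums of 23647 and 25100. With the log2 level of per3 as a covariate, tcp1 and cct3 passed (log2 difference 0.52 and 0.63, limma, Benjamini-Hochberg adjusted p = 0.0260 and 0.0184), where 5.25% of all genes were higher. The labels give no hour of collection, and the part of per3 in these differences was not tested beyond this fit.

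Markers of cell types also differed between the pools, with counts from limma unless another tool is named. All 45 markers found were above 0 in every library. Summed levels were lower in every mutant pool than in every WT pool for 6 of the 11 marker lists. How often the sums of other lists of genes lack overlap was not tested, so this count is only a description. Markers of dividing cells summed to 375 to 710 in mutant pools, against 1303 to 1549 in WT pools, and 4 of 6 fell. Those of cartilage summed to 1190 to 2741 in mutant and 10312 to 15055 in WT pools, and 2 of 3 fell. Erythrocyte markers summed to 301 to 783 in mutant and 1588 to 2056 in WT pools, and 2 of 4 fell. For epidermis the sums were 40167 to 77168 in mutant and 100361 to 124535 in WT pools, with 2 of 3 lower by the test. For liver they were 9575 to 15327 in mutant and 18689 to 20294 in WT pools, with 2 of 4 lower by the test. Skeletal muscle markers summed to 303820 to 452803 in mutant and 482061 to 619640 in WT pools, and 0 of 5 passed in limma or edgeR while DESeq2 called 2 lower (1 lower at an unadjusted p under 0.05 in limma). The intestine sum lay in the other direction without overlap, at 24615 to 37516 in mutant and 15644 to 21137 in WT pools. In limma 0 of 4 passed, while edgeR and DESeq2 called 1 higher each (2 higher at an unadjusted p under 0.05 in limma). Most of this sum was chia.2, with means of 20199 in mutant and 10883 in WT pools (log2 difference 0.88). Levels of apoa4b.1 were also higher without overlap (0.55), while fabp2 (0.10) and vil1 (-0.10) overlapped between the groups. The sums of the remaining 4 lists overlapped between the groups. They were 56465 to 97598 in mutant and 42453 to 63266 in WT pools for exocrine pancreas, and 11346 to 12485 in mutant and 10892 to 15650 in WT pools for neurons. Photoreceptor markers summed to 27032 to 43742 in mutant and 39672 to 59484 in WT pools, and leukocyte markers to 189 to 458 in mutant and 286 to 339 in WT pools. Of these 4 lists, only 1 neuron gene passed in limma, lower in mutant pools. DESeq2 called 2 exocrine pancreas markers higher, and photoreceptor markers were called lower by edgeR (1) and DESeq2 (2). Over all 11 lists limma called 13 markers lower and 0 higher, where 2.18% of all genes tested were lower and 2.31% higher. Without the libraries that stood apart it called 29 lower and 4 higher, where 11.8% of all genes passed in each direction. The part of any of these cell types in the levels of CCT was not tested.

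The cochaperone prefoldin, which delivers clients to CCT, had the same direction as most subunits. All 6 of its subunits had positive log2 differences, from 0.14 to 0.76 with a median of 0.45, where 49.9% of all genes were positive. All 6 were also highest in mutant replicate 2, so they are not separate results. None passed in limma (0 of 6, with 3 higher at an unadjusted p under 0.05, a level that 9.03% of all genes reached in that direction). The nearest was pfdn2, with 342, 415 and 295 normalized read counts in mutant pools, against 191, 188 and 240 in WT pools. Its groups did not overlap, and the log2 difference was 0.76 (limma, SE 0.19, Benjamini-Hochberg adjusted p = 0.0529). The next was pfdn5, at 0.69 (SE 0.21, adjusted p = 0.105). By edgeR pfdn2 passed (Benjamini-Hochberg adjusted p = 0.0395), and by DESeq2 pfdn2 and pfdn5 did (adjusted p = 0.0127 and 0.0323). Of all genes, 4.67% passed in edgeR in either direction, and 3.49% were called higher by DESeq2. Without mutant replicate 2 and WT replicate 1, the prefoldin median was 0.15 and 1 of 6 passed, pfdn2 (limma, adjusted p = 0.0256). In that fit 11.8% of all genes passed higher, so this count is near the background. Of 3 genes related to prefoldin subunits, none passed (0 of 3 in limma, edgeR and DESeq2, and 0 at an unadjusted p under 0.05), with pdrg1 at 0.32 and uri1 at -0.18. Of 4 phosducin-like cofactors of CCT, 2 were found, pdcl at -0.21 and txndc9 at 0.17, and neither passed in limma, edgeR or DESeq2. Without the libraries that stood apart pdcl was at -0.43 and passed (limma, adjusted p = 0.0463), where 11.8% of all genes passed lower.

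Tubulin that leaves CCT is joined into dimers by the tubulin folding cofactors and the small GTPase arl2. All 6 of these genes had positive log2 differences, with a median of 0.48, where 49.9% of all genes were positive. All 6 were also highest in mutant replicate 2, so they are not separate results. None passed in limma (0 of 6, with 3 higher at an unadjusted p under 0.05, against 9.03% of all genes). The nearest was tbcc, cofactor C, with 118, 212 and 136 normalized read counts in mutant pools, against 57.6, 61.8 and 90.1 in WT pools. Every mutant pool lay above every WT pool, with a log2 difference of 1.13 (limma, SE 0.28, Benjamini-Hochberg adjusted p = 0.0513). Cofactor E, tbce, was at 0.75 (SE 0.23, adjusted p = 0.0988). Without the libraries that stood apart the median was 0.21 and 1 of 6 passed, tbcc (limma, adjusted p = 0.0327). In that fit 11.8% of all genes passed higher, so this count is near the background. With all 6 libraries tbcc also passed by edgeR and DESeq2 (adjusted p = 0.0431 and 0.00578). Of all genes, 4.67% passed in edgeR in either direction, and 3.49% were called higher by DESeq2.

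Genes of the client proteins had medians below 0. Of 19 tubulin genes, 1 rose, 1 fell and 17 did not pass, with a median of -0.20, where 2.31% of all genes rose and 2.18% fell. The median weighs each gene alike, and 6 of the 19 had positive differences. Among these 6 were tubb4b (0.47, limma, adjusted p = 0.275) and tuba8l2, the tubulins of highest level. Summed over the list, tubulins were at 18430, 26951 and 17161 in mutant pools, against 17697, 20173 and 21849 in WT pools. These sums overlapped, so the median does not show a lower summed tubulin level. The beta tubulin tubb5 fell (661, 892 and 450 normalized read counts in mutant pools, against 1133, 1536 and 1757 in WT pools, log2 difference -1.17, limma SE 0.25, Benjamini-Hochberg adjusted p = 0.0283). The alpha tubulin tuba8l2 rose (4528, 6710 and 4392 in mutant pools, against 2634, 2942 and 2788 in WT pools, log2 difference 0.88, SE 0.19, adjusted p = 0.0305). Both calls ended with any of mutant replicates 1 and 3 and WT replicates 2 and 3 left out, with adjusted p of up to 0.133, and in limma without the intensity trend (0.111 for tubb5 and 0.104 for tuba8l2). Of 7 actin genes, 2 fell and 5 did not pass, with a median of -0.68. That median is the value of actc1a, a muscle actin. The cytoplasmic actins actb2 and actb1 were at 0.10 and -0.24 (limma, adjusted p = 0.903 and 0.615). The median therefore does not describe actins outside muscle. The skeletal muscle actins acta1b and acta1a had log2 differences of -2.41 and -1.52 (SE 0.33 and 0.21, adjusted p = 0.00353 and 0.00370), and both passed with each library left out. Alpha tubulin, beta tubulin and actin genes each have close copies, whose reads may have been split between them. Of 17 genes of WD40 and cell cycle clients none passed (0 of 17 in limma, edgeR and DESeq2, with 4 lower at an unadjusted p under 0.05, against 9.17% of all genes), 4 were positive and the median was -0.25, with plk1 at -1.04 and cdc20 at -1.50 (adjusted p = 0.137 and 0.153). Without the libraries that stood apart, 7 tubulins, 6 actins and 7 of the WD40 and cell cycle clients passed lower, and 1 tubulin higher, in a fit where 11.8% of all genes passed in each direction.

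Other chaperone systems gave a mixed picture. Of 5 other chaperonin genes none passed (0 of 5 in limma, edgeR and DESeq2, and 0 at an unadjusted p under 0.05), and the mitochondrial chaperonin hspd1 had 455, 703 and 644 normalized read counts in mutant pools, against 597, 424 and 380 in WT pools. These groups overlapped (log2 difference 0.37, SE 0.22, adjusted p = 0.429), and mkks, a gene of the chaperonin-like group of Bardet-Biedl syndrome, was at -0.51. In the Hsp70 and Hsp90 system, 3 of 30 genes rose, 1 fell and 26 did not pass, with a median of 0.19, where 2.31% of all genes rose and 2.18% fell. Those that rose were the Hsp90 cochaperone ptges3a (log2 difference 0.89), the chaperone hsp90aa1.1 (1.03) and hsf1 (0.70), the transcription factor of the heat shock response. The level of hsf1 was 462, 413 and 402 in mutant pools, against 253, 228 and 307 in WT pools, with no overlap (limma, SE 0.17, Benjamini-Hochberg adjusted p = 0.0459). The gene that fell, ahsa1a, an activator of Hsp90, had 20.6, 7.54 and 10.3 in mutant pools, against 73.7, 79.4 and 75.2 in WT pools, and its call held in all 6 fits that left out a library (highest adjusted p 0.0405). The call of hsf1 ended with any library left out (adjusted p from 0.0543 to 0.256). That of ptges3a ended without mutant replicate 3 or WT replicate 2 (0.0794 and 0.112), and that of hsp90aa1.1 without mutant replicate 3 or WT replicate 2 or 3 (0.0908, 0.122 and 0.0732). Without both libraries that stood apart, 4 genes of this system passed higher and 4 lower, where 11.8% of all genes passed in each direction. Without the intensity trend none of the 3 passed (adjusted p = 0.124 for hsf1, 0.0720 for ptges3a and 0.0941 for hsp90aa1.1).

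**Figure D4:**
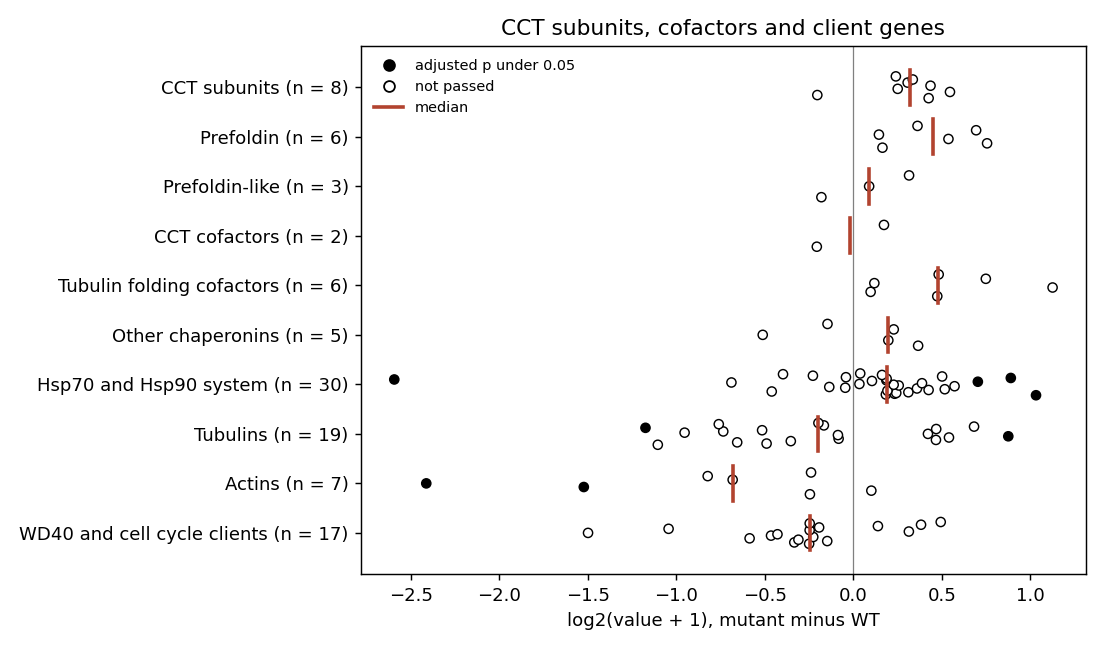
Difference in log2(value + 1) between mutant and WT pools (horizontal axis) for each tested gene of CCT and of the lists around it (rows, number of genes in brackets), with filled points for adjusted p under 0.05 and red bars for medians. Medians lie between 0.32 and 0.48 for CCT, prefoldin and the tubulin folding cofactors, and below 0 for tubulins, actins and the WD40 and cell cycle clients. Medians weigh each gene alike, and the summed level of each of these client lists overlapped between the groups.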

How the data were processed

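Poly(A) RNA of 3 mutant and 3 WT pools was sequenced as paired reads of 150 bp from fragments of about 200 bp, per the labels' protocols. The authors' deposited table holds 1 signal value per transcript and library, with the unit not named in its header. All values (100% in each library, tolerance 0.001) were whole multiples of the smallest positive value, so the signal was taken as reads divided by 1 factor per library. In WT replicate 3 the value of 1 read was 0.990, which is close to 1 but outside that tolerance. Per the file headers the table also gives the authors' log2 fold change, p-value and q-value, whose sign was mutant over WT for 99.8% of transcripts. Per the submitters' processing notes, reads were placed on GRCz11. How reads were aligned and counted, whether strand was used and which test the authors ran is not stated in the labels or file headers.

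Each gene was represented by its transcript with the highest mean. The test was limma 3.58.1 (R 4.3.3) with an intensity trend on log2(value + 1). It covered the 22803 genes that reached a value of 1 in at least 3 libraries, with Benjamini-Hochberg adjustment and a threshold of 0.05. All fold changes from limma are on this scale. Alternatives used edgeR 4.0.16 and DESeq2 1.42.0 on the recovered reads. The methods were tested on simulated data, with changes larger than those of any CCT subunit and with no pools that stood apart. That test does not cover differences as small as those of the subunits. All 8 members are named whatever their p, with the 2 genes of smallest p in each list, those past the threshold where 6 or fewer, and the 6 genes of most similar pattern. The members and lists were chosen with earlier results of these data known. Of the listed genes, pdcl2, pdcl3, actg1, hsp70.2 and acan matched no row, and 2 tubulin symbols named the same gene. No coordinates are given because the gene table used for synonyms is of another assembly (GRCz12tu).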

Additional observations from a re-analysis of the deposited data

How the results depend on the processing

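Under 21 other settings, the sign of all 8 subunits was the same as with the settings reported. The number of subunits that passed higher was 1 with DESeq2, 1 after rescaling to total reads (a setting chosen after seeing the data) and 2 with per3 as a covariate. The number lower was 1 without mutant replicate 2 and WT replicate 1, and with any single library left out it was 0 in both directions. The log2 difference of cct3 passed at 0.56 with DESeq2, 0.56 after rescaling to total reads and 0.63 with per3 as a covariate, that of tcp1 at 0.52 with per3, and that of cct2 at -0.48 without both libraries. Over all genes, 526 passed higher and 497 lower, against 1198 and 899 with per3 as a covariate, 2599 and 2592 without both libraries, and 273 higher without the intensity trend. With each library left out these counts were 152 to 872 higher and 99 to 772 lower. The summed CCT level had a log2 ratio of mutant to WT means of 0.31, of 0.10 without both libraries, of 0.16 without mutant replicate 2 alone, and of 0.16 to 0.41 with each library left out. The share of cct2 differed by -2.93 percentage points (mutant minus WT), by -2.26 with transcripts summed, which counts reads shared by isoforms more than once, and by -3.43 without both libraries. In all, 66 values moved, 5 came to pass and 577 stayed on their side of the threshold or within range. This tally includes counts for the gene lists and for all genes, and many list counts were 0 and stayed 0. It is therefore no measure of how stable the results on the subunits are. With the replicate number as a block 0 subunits passed (cct3 at an adjusted p of 0.154) and 492 and 488 of all genes did. Same-numbered pools deviated from their group means with r of 0.18, 0.18 and -0.39, so the numbers were not taken as pairs. The design has 3 pools a group, and the reads per subunit were not limiting.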
